A study of Mus musculus with 6 samples.

Results

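The genes described here encode the receptors through which cells hold extracellular matrix: the integrin α and β subunits, the syndecans, the collagen receptors Ddr1 and Ddr2, and dystroglycan (Dag1). They were chosen by name, 33 genes in all, and 32 had a probe set of their own among the 22180 genes measured. Itga10 was not analysed here. Where a member had more than 1 such probe set, which held for 3 members, the brightest by its mean over the 6 arrays was used.

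The samples were fibroblasts sorted from ventral skin of female C57BL/6-background mice aged 8 to 12 weeks. The KrP group held 3 samples from K14-PTHrP transgenic mice, whose nipple-like ventral skin carries a transgene for parathyroid hormone-related protein (PTHrP) under the keratin 14 promoter, which is active in basal keratinocytes. The WT group held 3 samples from the ventral skin of wild-type littermates, labelled as telogen skin. Cells were released with trypsin and collagenase, pooled, and sorted, per the labels' protocols. The gate kept viable cells with CD140 on their surface and left out cells with CD31 (endothelial), CD45 (blood), CD117 or CD49f. Each sample was measured on 1 array. The labels name 3 mice as the source of cells without saying whether this is per sample, so the spread behind the p-values is that between these 6 samples and may be technical. The transgene acts outside the sorted cells and Pthlh was not analysed here as a gene of its own, so these arrays hold no direct check of the genotype. The descriptions of KrP 2 and KrP 3 name other keratins, while all 3 genotype labels name K14.

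An integrin is a pair of an α and a β subunit that binds matrix outside the cell and, through talin, kindlin and other adaptors, the actin skeleton inside it. The α subunit largely sets the ligand: collagens, laminins, or proteins with an RGD motif such as fibronectin and vitronectin. Syndecans carry heparan sulfate chains that bind matrix and growth factors, the discoidin domain receptors are tyrosine kinases switched on by collagen, and dystroglycan links laminin to dystrophin. In dermal fibroblasts these receptors carry adhesion, matrix assembly, collagen contraction and the activation of latent TGF-β.

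Values are deposited log2 expression values, on which a difference of 1 is 2-fold. Array medians lay between 6.34 and 6.43, and arrays correlated across genes by 0.985 to 0.995 within groups and by 0.972 to 0.989 across groups. Fibroblast markers were high throughout: the mean log2 value of 10 markers ran from 12.09 to 12.58 in KrP samples and from 11.74 to 12.28 in WT samples. As a guide to background, 1104 olfactory receptor genes had a 95th percentile of 6.28. Mean log2 levels of 25 of the 32 members lay above it, and Itga3, Itgam, Itgax, Itgad, Itgae, Itgb6 and Itgb8 lay below it, where differences are compressed. Probe sets differ in their response, so levels are not ranked between genes. In bulk samples, fewer cells of a type and less RNA per cell cannot be told apart.

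The α4 integrin subunit Itga4 and syndecan-1, Sdc1, were the members that rose in KrP fibroblasts, and no member fell at the same threshold. In the standard fit (limma across all genes and all 6 arrays, with no block and no array weights, at a Benjamini-Hochberg adjusted p under 0.05), 2 of 32 members passed, against 2.18% of all genes (1.15% higher and 1.03% lower). The same 2 members made up 6.25% of those measured, a count too small to set the receptors apart from other genes. When the replicate number was entered as a block, 4 members rose and 4 fell, or 25% of members, against 8.35% of all genes. These were Itga4, Sdc1, Itga1 and Dag1, which were higher, and Itga2, Itgav, Itgb7 and Sdc3, which were lower in KrP samples. When arrays were weighted instead, 14 members passed, among them these 8, but so did 28.9% of all genes.

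**Figure D1:**
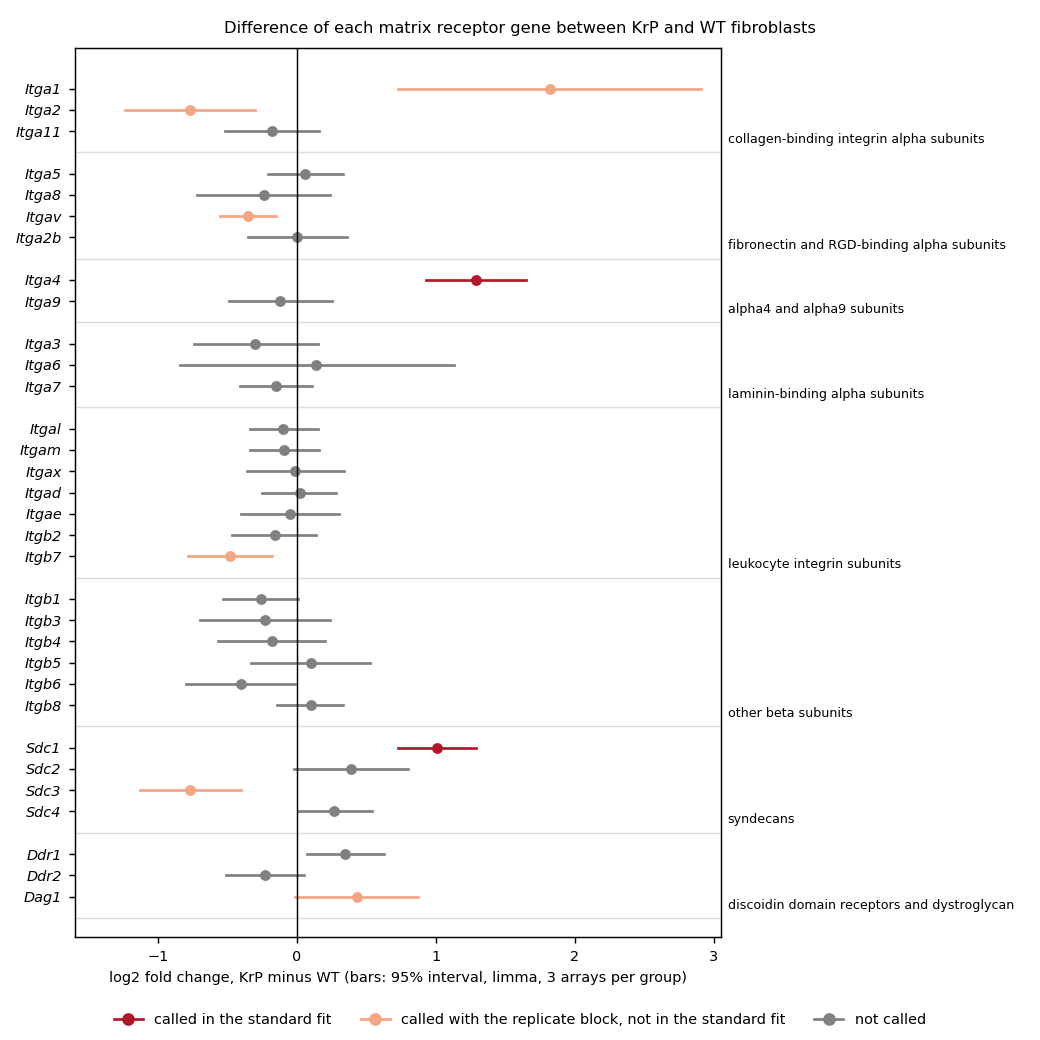
Log2 fold change of each of the 32 measured members, KrP minus WT, grouped by role, with 95% intervals from limma on 3 arrays per group. Itga4 at 1.29 and Sdc1 at 1.01 were called, 6 further members were called with the replicate block and not in the standard fit, and most of the rest lie within 0.5 of 0.

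The KrP and WT values did not overlap for 10 of the 32 members, of which 4 were higher and 6 lower, against 20.3% of all genes (11.4% higher and 8.93% lower). At an unadjusted p under 0.05 there were 5 higher and 5 lower members, or 31.2%, against 16.0% of all genes. The median log2 fold change was -0.09 over the members and 0.01 over all genes. The median size of the change, without its sign, was 0.23 for members and 0.14 for all genes, which were not matched for level.

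**Figure D2:**
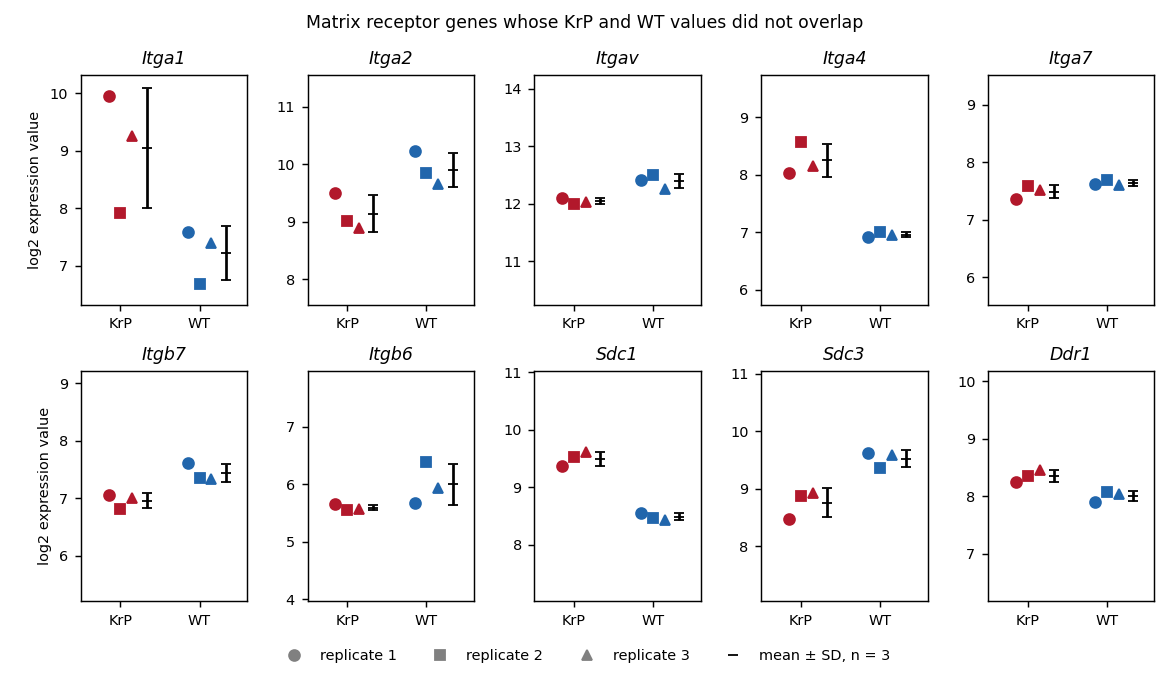
Log2 expression values of the 10 members whose KrP and WT values did not overlap, by sample, with the mean and SD of 3 samples per group; every panel spans 4 log2 units. Itga4 and Sdc1 show gaps of 1.01 and 0.81 between the groups, Itga1 has a wide spread in KrP samples, and the gaps of Itga7 and Itgb6 are 0.02.

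Promoter sequences are shown for the called pair, Itga4 and Sdc1, for Sdc3, the syndecan that differed the other way, and for the collagen receptor neighbours Itga1 and Itga2. They come from RefSeq on GRCm38.p6 and run from 250 bases before to 50 bases after the gene's start, 5′ to 3′ on the gene's strand. The window of Itga4 is chr2:79255176-79255475 (plus strand), of Sdc1 chr12:8771146-8771445 (plus), of Sdc3 chr4:130792287-130792586 (plus), of Itga1 chr13:115101915-115102214 (minus) and of Itga2 chr13:114932051-114932350 (minus). Capitals mark matches on either strand to 5 motifs. The GC box, bound by Sp factors, was searched as GGGCGG. The cAMP response element (CRE) was searched as TGACGTCA and its shorter site, contained in every full CRE, as TGACG. The AP-1 site, bound by Fos and Jun proteins, was searched as TGANTCA, and the TATA box of core promoters as TATAAA.
Itga4: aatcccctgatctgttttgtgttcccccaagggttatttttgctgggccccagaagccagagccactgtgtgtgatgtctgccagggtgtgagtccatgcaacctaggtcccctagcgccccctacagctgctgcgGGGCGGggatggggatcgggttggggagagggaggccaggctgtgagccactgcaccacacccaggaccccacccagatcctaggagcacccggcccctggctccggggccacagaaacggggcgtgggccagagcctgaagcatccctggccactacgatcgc
Sdc1: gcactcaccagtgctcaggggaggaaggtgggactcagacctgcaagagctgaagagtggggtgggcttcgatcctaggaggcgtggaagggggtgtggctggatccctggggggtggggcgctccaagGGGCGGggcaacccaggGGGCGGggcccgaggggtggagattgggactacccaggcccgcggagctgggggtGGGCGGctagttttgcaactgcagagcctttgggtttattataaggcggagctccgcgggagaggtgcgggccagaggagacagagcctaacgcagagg
Sdc3: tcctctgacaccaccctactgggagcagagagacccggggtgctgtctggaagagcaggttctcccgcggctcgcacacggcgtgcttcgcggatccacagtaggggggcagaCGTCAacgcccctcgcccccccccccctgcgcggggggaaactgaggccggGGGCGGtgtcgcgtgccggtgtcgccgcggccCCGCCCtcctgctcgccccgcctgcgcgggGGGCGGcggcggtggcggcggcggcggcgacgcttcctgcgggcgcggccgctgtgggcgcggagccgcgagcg
Itga1: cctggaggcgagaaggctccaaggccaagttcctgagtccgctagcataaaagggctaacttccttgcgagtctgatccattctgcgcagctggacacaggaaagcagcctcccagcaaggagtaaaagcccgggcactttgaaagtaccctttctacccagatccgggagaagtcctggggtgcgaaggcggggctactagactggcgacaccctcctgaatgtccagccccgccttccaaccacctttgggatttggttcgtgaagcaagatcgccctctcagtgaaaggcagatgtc
Itga2: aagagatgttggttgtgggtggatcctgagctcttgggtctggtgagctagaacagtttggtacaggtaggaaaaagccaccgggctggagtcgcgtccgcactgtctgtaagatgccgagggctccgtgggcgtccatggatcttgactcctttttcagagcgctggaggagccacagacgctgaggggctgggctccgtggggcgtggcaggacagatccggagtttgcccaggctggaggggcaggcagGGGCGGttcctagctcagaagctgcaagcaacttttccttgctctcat

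The Itga4 window held 1 GC box, those of Sdc1 and Sdc3 held 3 each, that of Itga2 held 1, and that of Itga1 held no match to any of these motifs. Sdc3 also held 1 short CRE site. Of 32851 promoter windows in the table, 35.7% held a GC box, 20.8% a short CRE site, 7.81% an AP-1 match, 13.6% a TATA box and 1.79% a full CRE. Of 33 members, 24 had a window in that table, with 30 windows in all. A GC box lay in 17 of these and a full CRE in 0. A match is only a string of letters, and no match says only that these letters are not in this window.

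Itga4 encodes the α4 subunit, which pairs with β1 or β7 and binds fibronectin and the cell surface ligand VCAM-1. Its log2 values were 8.02, 8.57 and 8.15 in KrP samples, against 6.91, 7.01 and 6.95 in WT samples. The lowest KrP value stood 1.01 above the highest WT value, and the WT samples lay close together (SD 0.05). Itga4 rose 2.45-fold, with a log2 fold change of 1.29 ± 0.16 (SE, limma adjusted p = 0.00751, or 0.00324 with the block). The call ended without KrP 3 (adjusted p = 0.0519) and without WT 3 (0.0542), while the log2 fold change was 1.34 and 1.29 in those fits. A further probe set assigned to several genes including Itga4 lay below the background guide and differed by 0.07.

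Itga9, the closest relative of Itga4 in sequence and also a partner of β1, averaged 8.67 ± 0.28 in KrP samples and 8.79 ± 0.09 in WT samples (SD, n = 3 each), with overlapping values. Its log2 fold change of -0.12 had a 95% interval of -0.49 to 0.25. The partners of α4 had negative log2 fold changes. Itgb1, the β subunit shared by most fibroblast integrins, had log2 values of 11.87, 12.19 and 12.03 in KrP samples, against 12.14, 12.47 and 12.26 in WT samples. These overlap, and the log2 fold change was -0.26 ± 0.12 (limma adjusted p = 0.326).

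Itgb7, the other partner of α4 and best known from lymphocytes, had log2 values of 7.06, 6.81 and 7.0 in KrP samples, against 7.62, 7.36 and 7.33 in WT samples. All KrP values lay below all WT values, by 0.27. The log2 fold change of -0.48 ± 0.13 did not pass (limma adjusted p = 0.119) and passed with the block (0.0418).

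Among the collagen-binding subunits, Itga1 and Itga2 differed in opposite directions, and neither passed in the standard fit. The α1 subunit Itga1, whose pair with β1 prefers type IV collagen, had log2 values of 9.96, 7.92 and 9.26 in KrP samples, against 7.58, 6.69 and 7.40 in WT samples. Every KrP value was above every WT value, but KrP 2 lay only 0.34 above the highest WT value, and the KrP SD was 1.04. The log2 fold change was the largest of the members at 1.82 ± 0.47, or 3.54-fold (limma adjusted p = 0.106). Within the same replicate number, Itga1 was higher by 2.38, 1.23 and 1.86 in KrP samples 1, 2 and 3, and the adjusted p was 0.00541 with the block. Without KrP 2 the log2 fold change was 2.39 and passed (0.00728). In the other fits that left out a sample the adjusted p lay between 0.15 and 0.355, with a lowest log2 fold change of 1.37 without KrP 1.

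Itga2, the α2 subunit, forms the α2β1 receptor, which prefers fibrillar collagens such as type I. Its log2 values were 9.50, 9.02 and 8.89 in KrP samples, against 10.23, 9.84 and 9.65 in WT samples. All KrP values were lower, the groups stood 0.15 apart, and the differences within replicate numbers were -0.73, -0.82 and -0.76. The log2 fold change of -0.77 ± 0.20 had an adjusted p of 0.112 by limma, or 0.00657 with the block. In RefSeq's gene order Itga1 and Itga2 are next to each other on chromosome 13. Itga11, the α11 subunit, a collagen receptor mainly of mesenchymal cells, overlapped between groups at 7.23 ± 0.12 in KrP and 7.41 ± 0.24 in WT samples (SD, n = 3 each).

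Of Itga5, Itga8, Itgav and Itga2b, the subunits that bind RGD proteins, none passed in the standard fit, and Itgav alone was lower at an unadjusted p under 0.05. Itga5, the α5 subunit of the classical fibronectin receptor, averaged 12.46 ± 0.23 in KrP samples and 12.41 ± 0.08 in WT samples (SD, n = 3 each). The 95% interval of its log2 fold change ran from -0.21 to 0.33. Itgav, the αv subunit of the vitronectin receptors that also activate latent TGF-β, had log2 values of 12.10, 12.00 and 12.03 in KrP samples, against 12.42, 12.50 and 12.26 in WT samples. All KrP values were lower, by a small step: the log2 fold change was -0.35 ± 0.09, or 1.27-fold (limma adjusted p = 0.0894, or 0.041 with the block). A dimmer Itgav probe set near the background guide differed by -0.08.

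Itga8, the nephronectin receptor subunit, and Itga2b, the platelet subunit, had overlapping values, with log2 fold changes of -0.24 and 0.00. Of the β partners of αv, Itgb3 averaged 12.33 ± 0.45 in KrP samples and 12.56 ± 0.16 in WT samples, and Itgb5 averaged 9.81 ± 0.33 in KrP samples and 9.71 ± 0.20 in WT samples (SD, n = 3 each). The values of both overlapped. Itgb8, which pairs with αv alone, lay below the background guide with a log2 fold change of 0.10.

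Among the laminin receptors of epithelium, none passed the test and single samples stood apart. Itga6, which encodes CD49f and was selected against in the sort, had log2 values of 6.49, 8.16 and 8.01 in KrP samples, against 7.16, 7.91 and 7.16 in WT samples. KrP 1 was the lowest of all 6, and the values overlap widely (log2 fold change 0.14, 95% interval -0.84 to 1.13). Itgb4, the partner of α6 in hemidesmosomes, had 6.83, 6.84 and 6.74 in KrP samples, against 6.83, 7.37 and 6.76 in WT samples. WT 2 alone stood above the rest.

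WT 2 was also highest for Itga3, the α3 laminin receptor subunit, at 6.54, and for the epithelial subunit Itgb6, at 6.38, where the other values ran from 5.68 to 5.98 and from 5.56 to 5.94. The mean log2 value of 13 keratinocyte markers ran from 6.18 to 6.35 in KrP samples and was 6.37, 7.03 and 6.34 in WT samples 1, 2 and 3. WT 2 had the highest value for 10 of the 13, while Krt14 itself was at 6.64, 6.52 and 6.63 in KrP samples, against 6.78, 7.59 and 6.52 in WT samples. WT 2 was also highest for 11 of 16 blood cell, 7 of 10 skeletal muscle and 6 of 10 melanocyte and mast cell markers. It was highest for 5 of 10 mural and smooth muscle, 4 of 10 endothelial, 2 of 7 Schwann and 2 of 8 adipocyte markers. Of 10 fibroblast markers, it was highest for 1. How often WT 2 was highest over all genes was not counted. Mean levels lay above the background guide for 7 of 13 keratinocyte and 7 of 16 blood cell markers. They did so for 7 of 10 skeletal muscle and 2 of 10 melanocyte and mast cell markers. No keratinocyte marker passed limma, and 0 were higher and 1 lower at an unadjusted p under 0.05. Of the 13 keratinocyte markers, 12 had a negative log2 fold change. The part of these cells in the 4 integrin genes was not tested. Without WT 2, the log2 fold change was 0.01 for Itgb4, -0.07 for Itga3 and -0.21 for Itgb6. Itga7, the α7 laminin receptor subunit best known from muscle, averaged 7.49 ± 0.11 in KrP samples and 7.64 ± 0.05 in WT samples (SD, n = 3 each).

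**Figure D3:**
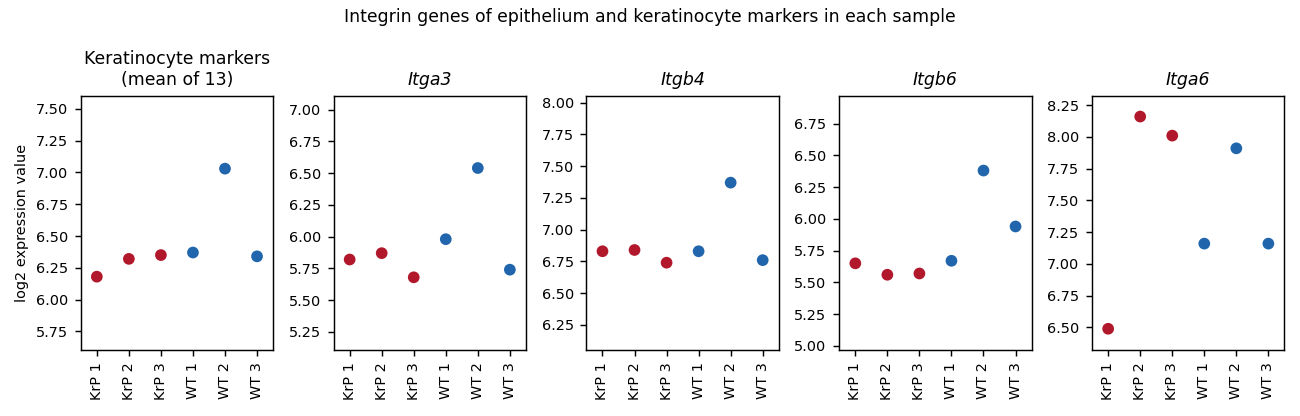
Log2 expression values in each sample of the mean of 13 keratinocyte markers and of the epithelial integrin genes Itga3, Itgb4, Itgb6 and Itga6; KrP samples are red, WT samples blue, and every panel spans 2 log2 units. WT 2 is the highest sample in the first 4 panels, whereas Itga6 is highest in KrP 2 and lowest in KrP 1.

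Of the 7 subunits known from leukocytes, none passed limma in the standard fit, and 1, Itgb7, was lower at an unadjusted p under 0.05. Itgal, Itgam, Itgax and Itgad, the α subunits that pair with β2, had log2 fold changes between -0.10 and 0.02, and that of Itgb2 was -0.16. Itgae, the partner of β7 on lymphocytes in epithelium, averaged 5.98 ± 0.16 in KrP samples and 6.03 ± 0.25 in WT samples (SD, n = 3 each). The mean of 16 blood cell markers ran from 6.32 to 6.35 in KrP samples and from 6.31 to 6.54 in WT samples. Ptprc, which encodes CD45, was at 4.44 to 4.99 in KrP samples, against 4.56 to 5.15 in WT samples, below the background guide in every sample. Of those 16 markers, 12 had a negative log2 fold change, with a median of -0.13. Csf1r was called higher (log2 fold change 0.73) and none was called lower, while at an unadjusted p under 0.05 1 was higher and 2 lower. The 2 were the T cell genes Cd3e, with a log2 fold change of -0.41 ± 0.17 (limma adjusted p = 0.274), and Cd3g, with -0.46 ± 0.12 (0.114, or 0.042 with the block). Both averaged below the background guide in KrP and in WT samples. Itgb7 was lower beside them, and the part of lymphocytes in that difference was not tested.

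Sdc1 and Sdc3 differed in opposite directions among the syndecans. Sdc1, a heparan sulfate carrier best known from epithelium and plasma cells, had log2 values of 9.37, 9.52 and 9.61 in KrP samples, against 8.56, 8.47 and 8.44 in WT samples. The groups stood 0.81 apart and each was tight. Sdc1 rose 2.01-fold, with a log2 fold change of 1.01 ± 0.12 (SE, limma adjusted p = 0.00707, or 0.00492 with the block). A second, dimmer Sdc1 probe set had 6.88, 7.06 and 7.01 in KrP samples, against 6.40, 6.37 and 6.40 in WT samples, a difference of 0.59 in the same direction. The call ended without KrP 3 (adjusted p = 0.0659) and without WT 3 (0.0559), with log2 fold changes of 0.95 and 0.98. The keratinocyte marker mean, given above for the epithelial integrins, was 6.18, 6.32 and 6.35 in KrP samples 1, 2 and 3. In WT samples it was 6.37, 7.03 and 6.34, so the groups overlapped only through KrP 3 and WT 3. Of the 13 markers, 12 had a negative log2 fold change, with a median of -0.26. The part of keratinocytes or plasma cells in the Sdc1 difference was not tested.

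Sdc3, a syndecan best known from nervous and musculoskeletal tissue, had log2 values of 8.47, 8.88 and 8.92 in KrP samples, against 9.63, 9.36 and 9.58 in WT samples. All KrP values were lower, by at least 0.44. The log2 fold change of -0.77 ± 0.16, or 1.70-fold, lay just outside the threshold (limma adjusted p = 0.053). It passed with the block (0.027), without the trend on mean level (0.0485), with quantile normalisation (0.0462) and with dim genes left out (0.0464 and 0.0415). It did not pass with the robust variance prior, with median centring or with averaged probe sets. It also passed without KrP 2 (0.0398), and in the other fits that left out a sample the adjusted p lay between 0.0845 and 0.23.

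Sdc2, the fibroglycan of mesenchymal cells, averaged 10.19 ± 0.32 in KrP samples and 9.80 ± 0.17 in WT samples, and Sdc4, the syndecan of focal adhesions, averaged 13.44 ± 0.15 in KrP samples and 13.16 ± 0.21 in WT samples (SD, n = 3 each). Values of both overlapped between groups. Their log2 fold changes of 0.39 and 0.27 did not pass (limma adjusted p = 0.336 and 0.303).

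The discoidin domain receptors and dystroglycan did not pass in the standard fit. Ddr1, the receptor kinase of epithelial cells mainly, had log2 values of 8.25, 8.36 and 8.46 in KrP samples, against 7.90, 8.07 and 8.04 in WT samples. The groups stood 0.18 apart, with a log2 fold change of 0.35 ± 0.12 (limma adjusted p = 0.202), while a dimmer Ddr1 probe set differed by -0.08. Ddr2, the fibrillar collagen receptor of mesenchymal cells, averaged 13.07 ± 0.21 in KrP samples and 13.30 ± 0.17 in WT samples (SD, n = 3 each), with overlap. Dag1 had log2 values of 11.51, 10.77 and 11.09 in KrP samples, against 10.89, 10.52 and 10.67 in WT samples. The groups overlapped, with KrP 2 below WT 1, and the log2 fold change of 0.43 ± 0.19 did not pass in the standard fit (limma adjusted p = 0.321) and passed with the block (0.0458).

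**Figure D4:**
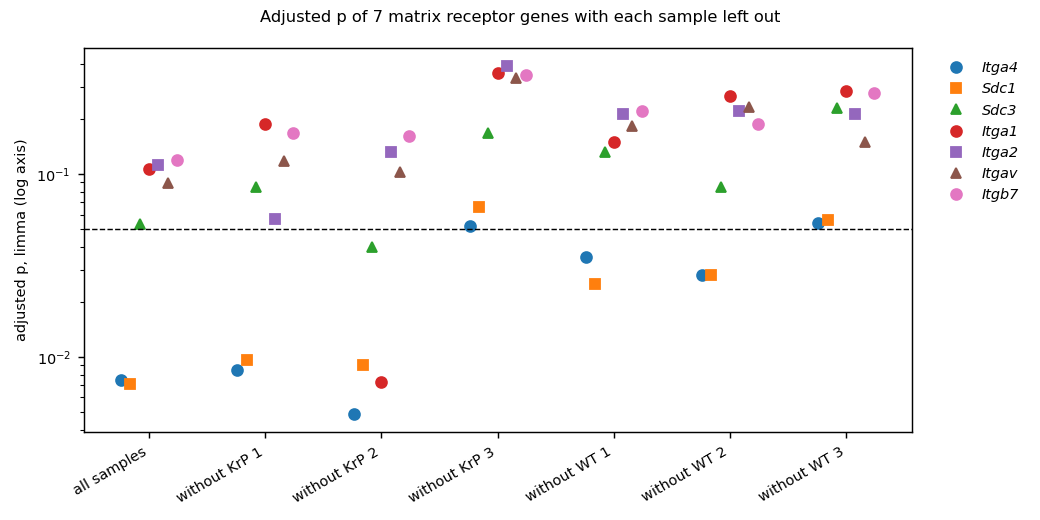
Adjusted p by limma (log axis) for 7 members with all samples and with each sample left out; the dashed line marks 0.05. Itga4 and Sdc1 lie below the line except without KrP 3 and without WT 3, Sdc3 and Itga1 cross it without KrP 2, and Itga2, Itgav and Itgb7 stay above it in all 7 fits.

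Ligands, adaptors and partners of these receptors were read from lists of 167 measured genes, with 11 called higher and 5 lower, or 28 and 16 under the block. The 16 calls made up 9.58%, against 2.18% of all genes. Under the block 8.35% of all genes were called, the share to set beside the block counts of each list. These shares were not matched for level, and the lists were chosen with earlier results of these data known. Over all genes, 13420 of 22180 lay above the background guide. With the lower 50% of genes left out, 4.94% of the genes kept were called. Of 28 soluble and matricellular ligands, 3 rose and 2 fell (6 and 5 with the block). Tgfb1, whose latent form is held for activation by αv integrins, had log2 values of 10.41, 10.94 and 10.74 in KrP samples, against 11.63, 12.05 and 11.68 in WT samples. It was 2.13-fold lower in KrP samples, without overlap (log2 fold change -1.09 ± 0.16, limma adjusted p = 0.0175). Ccn3, a matricellular integrin ligand, was 1.79-fold lower. The secreted matrix protein Ecm1 rose 1.77-fold, the αv ligand Mfge8 1.46-fold and the thrombospondin Thbs2 1.23-fold.

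The α4 ligands Fn1, Emilin1 and Vcam1 did not pass in the standard fit. They were chosen after their values were seen and are not all of the α4 ligands in the lists. Fn1, fibronectin, had a log2 fold change of 0.46 ± 0.14 (limma adjusted p = 0.154, or 0.0471 with the block), Emilin1 of 0.62 ± 0.16 (0.102, or 0.0174) and Vcam1 of -0.58 ± 0.29 (0.385, or 0.0241). Icam1, a ligand of the β2 integrins, had -1.23 ± 0.31 (0.0986, or 0.00564). Without KrP 2, limma called Emilin1 (adjusted p = 0.0416), Vcam1 (0.037) and Icam1 (0.0116). The same fit called the counter-receptors Jam2 (0.0179), Adam9 (0.0274) and Thy1 (0.04), all higher in KrP samples. Dropping KrP 2 gave 1116 calls over all genes (5.03%), against 85 to 321 when any other sample was dropped. Neither these counter-receptors nor Emilin1, Vcam1 and Icam1 were called when any other sample was dropped, or with all samples kept. With all samples, Jam2 had a log2 fold change of 1.07 ± 0.31 (limma adjusted p = 0.138, or 0.00827 with the block). Of 11 counter-receptors on cells, 0 rose and 0 fell by limma (1 and 2 with the block), and 3 were at an unadjusted p under 0.05, 2 higher and 1 lower.

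Of 15 collagen chains, 1 rose and 2 fell (4 and 2 with the block): Col6a3, of microfibrillar type VI collagen, rose 3.00-fold, and the type IV chains Col4a1 and Col4a2 of basement membrane were 1.57-fold and 1.64-fold lower in KrP samples. The other type VI chains in the list, Col6a1 and Col6a2, did not pass (limma adjusted p = 0.397 and 0.153). Nor did the type I chains Col1a1 and Col1a2, with log2 fold changes of 1.18 ± 0.46 (0.258, or 0.0486 with the block) and 1.15 ± 0.43 (0.237, or 0.0323). Of 14 laminin receptor ligands, 1 was called higher and 0 lower (2 and 0 with the block), namely Hspg2, the basement membrane proteoglycan perlecan, at 1.90-fold.

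Inside the cell, 1 of 24 adaptors and activators rose and 0 fell (2 and 0 with the block). This was Kank2, which binds talin, with 9.91, 9.26 and 9.66 in KrP samples, against 8.78, 8.48 and 8.65 in WT samples, or 1.96-fold. Of 21 genes of focal adhesion signalling, 2 were called higher and 0 lower (5 and 0 with the block): Vasp, which promotes actin filament growth, 1.58-fold, and Lpp, a zyxin relative, 1.48-fold. Of 13 tetraspanins and lateral partners, 1 rose and 0 fell (2 and 3 with the block), namely Cd151, a partner of laminin-binding integrins, at 1.87-fold.

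Among 17 genes of the dystrophin complex and dystroglycan glycosylation, 1 was called higher and 0 lower (4 and 0 with the block), and 15 of the 17 had a positive log2 fold change, against 11400 of 22180 over all genes. The called gene was Dtnb, a dystrobrevin, at 1.61-fold. B4gat1, a glycosyltransferase needed for the laminin-binding sugar of dystroglycan, had a log2 fold change of 1.01 ± 0.28 (limma adjusted p = 0.119, or 0.00397 with the block). Of 24 syndecan partners and heparan sulfate enzymes, 1 was higher and 1 lower (2 and 4 under the block). Sulf1, an extracellular enzyme that removes sulfate from heparan sulfate, rose 2.14-fold, with 9.55, 8.94 and 9.39 in KrP samples, against 8.18, 8.35 and 8.06 in WT samples. Sulf2, which has the same activity, had a log2 fold change of -0.67 ± 0.14 that did not pass (limma adjusted p = 0.0634, or 0.0293 with the block). Sdcbp2, a relative of the syndecan-binding adaptor syntenin, was 1.56-fold lower.

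At an unadjusted p under 0.05, 2094 of all 22180 genes were higher and 1455 lower, or 16.0% together. Among the lists with 0 calls below WT, the 24 adaptors held 2 higher and 4 lower genes. The 21 focal adhesion genes held 6 and 1, and the 13 tetraspanins or partners 2 and 3. The 17 dystrophin complex genes held 7 and 1, and the 14 laminin receptor ligands 2 and 0. The 16 called genes kept their direction under each of the 15 alternatives, but calls ended under several. Quantile normalisation ended 5 (Ccn3, Col6a3, Hspg2, Mfge8 and Vasp), leaving out the trend 3, median centring and averaged probe sets 2 each, and the robust prior 1 (Thbs2). Without KrP 3 or without WT 3, 0 of the 16 remained called, against 1 without WT 2 (Ecm1), 3 without WT 1, 7 without KrP 1 and 15 without KrP 2.

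**Figure D5:**
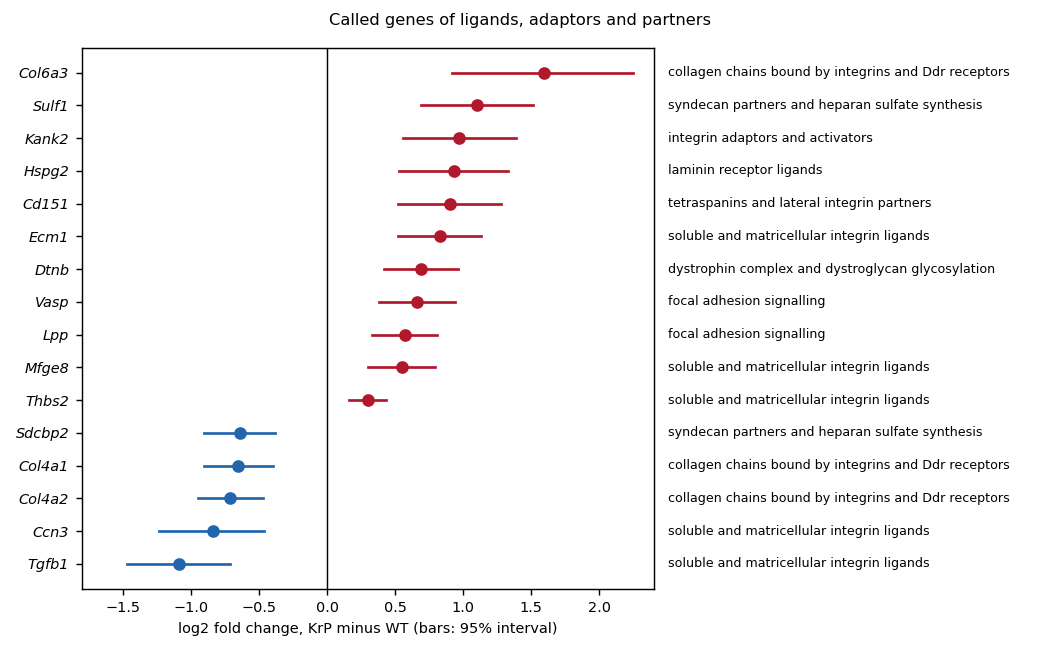
Log2 fold change, KrP minus WT, of the 16 called genes among ligands, adaptors and partners of matrix receptors, with 95% intervals and the list of each gene. The 11 genes above 0 are led by Col6a3 and Sulf1, and the 5 below 0 include Tgfb1 and both type IV collagen chains.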

How the data were processed

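The authors deposited a matrix of log2 values with a row for each probe set and a column for each array. The submitters' processing notes name RMA and Partek, with neither version nor role. Which build and filter were used is not given in the sources used here. The values run from 1.72 to 14.32 with near-equal medians, so nothing was renormalised. Arrays carry no read depth, and their number limits the precision.

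Gene names of probe sets came from the platform annotation, updated by gene ID through RefSeq (GRCm38.p6, names and gene order only). Of 34390 probe sets, 23521 had 1 gene, 1814 several and 9055 none, and 193 kept the annotation's name. KrP and WT were compared with limma 3.58.1 in R 4.3.3 (lmFit, eBayes with a trend on mean level) over all 22180 genes, with 3 arrays per group. Log2 fold changes are KrP over WT. The fit was tested on simulated data. Alternatives changed the variance prior, array weights, filter on dim genes, normalisation, probe set choice or block, or left out a sample. Figures were drawn with matplotlib 3.10.9.

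The members, roles and lists were chosen with earlier results of these data known. All members are described, those called or changed at least 2-fold with every sample's value, as are others that passed with the block. From each list, up to 3 called genes per direction are named. Genes beyond that rule (Fn1, Emilin1, Vcam1, Icam1, Jam2, Adam9, Thy1, B4gat1, Sulf2, Col1a1, Col1a2, Col6a1, Col6a2, Cd3e, Cd3g, Kdr, Cdh5, Acta2, Pecam1, Ptprc, Krt14) were chosen after their values were seen. A planned ranking of genes by likeness to called members was not used, since the samples fall into 2 groups. No set test was run.

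Samples of both groups share the numbers 1 to 3. Across genes, deviations from the group mean correlated by 0.414, 0.350 and 0.120 between same-numbered samples. Between differently numbered samples the correlations ran from -0.385 to 0.067, the highest being KrP 3 with WT 2, near the 0.120 of pair 3. The block read the numbers as pairs, and the standard fit did not. No label states this pairing, and blocked p-values may be too small.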

Additional observations from a re-analysis of the deposited data

How the results depend on the processing

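The 32 member results were recomputed under 15 alternatives, giving 470 values, since dim members drop out of the filtered tables. Of these, 442 kept their side of the threshold, 24 newly passed and 4 lost their call. The 4 were Itga4 and Sdc1, each without KrP 3 and without WT 3. Neither changed direction under any alternative, while 10 members that were not called changed sign in at least 1 of them. Itga2b, whose log2 fold change rounded to 0.00, was left out of that count and ran from -0.11 to 0.11. Over all genes, 483 were called (255 higher, 228 lower), against 1851 with the replicate block and 6410 with array weights. Counts ran from 85 to 1116 in fits without 1 sample: 321 without KrP 1, 1116 without KrP 2, 85 without KrP 3, 230 without WT 1, 256 without WT 2 and 101 without WT 3. Members called numbered 2, against 8 with the replicate block and 14 with array weights, and 0 to 4 in fits without 1 sample (0 without KrP 3 and without WT 3, 4 without KrP 2). Fits without 1 sample have fewer samples; the cause of the high count with array weights, which called 28.9% of all genes, was not tested. Differences of the 7 members below the background guide are compressed.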

Other observations

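KrP 2 held the lowest KrP value of Itga1 and of Dag1 and the highest of Itga4. Of 10 endothelial markers, 0 were called higher and 1 lower by limma (0 and 2 with the block), and 1 was higher and 2 lower at an unadjusted p under 0.05. Tek was called lower in KrP samples (log2 fold change -0.76). Kdr had log2 values of 7.76, 6.84 and 7.31 in KrP samples, against 9.28, 8.19 and 8.67 in WT samples (log2 fold change -1.41 ± 0.31, limma adjusted p = 0.0658, or 0.00158 with the block). Cdh5 had a log2 fold change of 0.54 ± 0.23 (0.304), and Pecam1 was at 6.72, 6.58 and 6.74 in KrP samples, against 6.49, 7.13 and 6.57 in WT samples. Of 10 mural and smooth muscle markers, Cspg4 was called lower (log2 fold change -1.10), and 0 were called higher by limma (1 at an unadjusted p under 0.05). That gene was Acta2, 1.31 ± 0.40 higher on the log2 scale in KrP samples (adjusted p = 0.154, and 0.0138 with the block).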
